A study of Homo sapiens with 6 samples.

Results

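Bile acid synthesis and transport was represented by 10 genes, taken by gene symbol from the deposited count table, which held 20289 genes. All 10 were found: CYP7A1, CYP7B1, CYP8B1, HSD3B7, CYP27A1, AMACR, SLC27A5, BAAT, SLC10A1 and ABCB11. The RNA came from Huh7 cells, an established human hepatocellular carcinoma line, and the comparison was between 3 libraries of UBE2S knockout cells and 3 libraries of wild-type (WT) cells, grown with no other agent that the labels name. UBE2S encodes an E2 enzyme that extends ubiquitin chains on substrates of the anaphase-promoting complex, and the series was made to look for genes that act downstream of it. The sources used here do not say how the knockout was made, nor whether its libraries came from 1 clone, several clones or separate cultures. Each p-value below therefore measures spread among these libraries alone, and that spread may be technical.

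Hepatocytes turn cholesterol into bile acids by hydroxylating and reducing the sterol nucleus, shortening the side chain in mitochondria and peroxisomes, and joining the product to glycine or taurine. The classical route starts with CYP7A1, and the alternative route starts with CYP27A1 and CYP7B1. Conjugated bile salts are pumped into the bile canaliculus by ABCB11 and taken back up from portal blood by SLC10A1, and the bile acid receptor FXR, encoded by NR1H4, restrains synthesis through the repressor NR0B2 and the hormone FGF19.

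The libraries held 21840499 to 25840104 estimated counts in the knockout and 23300336 to 27910396 in WT, with 15442 to 15694 genes detected. Values below are CPM, counts scaled to a common library size (TMM). WT replicate 1 differed from the other WT libraries by 8.11 and 10.4 chi-square units per degree of freedom, against 1.41 to 1.79 for the other pairs within a group. UBE2S itself was at 47.5, 45.4 and 44.2 CPM in the knockout libraries and 234, 220 and 216 CPM in the WT libraries. All 10 markers of hepatocytes were detected, with a summed level of 28573 to 29130 CPM in the knockout and 31553 to 32188 CPM in WT, so the labelled cell type carried its defining transcripts. Of those 10, 2 were higher and 7 lower in the knockout at an edgeR adjusted p below 0.05, where 60.1% of all tested genes were called, 29.4% higher and 30.7% lower, a background that holds for each marker list here. Markers of other lineages were measured too. The 6 endothelial markers, of which 1 was tested and was lower, summed to 2.41 to 2.91 CPM in the knockout and 6.06 to 7.42 CPM in WT with KDR at 0. The tested marker, PECAM1, averaged 2.06 CPM in the knockout and 5.72 CPM in WT and made up most of that sum. The 6 immune markers, of which 3 were tested and were lower, with CD3E at 0, summed to 179 to 182 CPM in the knockout and 290 to 313 CPM in WT. Most of that sum was LYZ, which averaged 167 CPM in the knockout and 280 CPM in WT. The other tested immune markers were CD68, which averaged 8.38 CPM in the knockout and 16.8 CPM in WT, and CD14 (4.66 and 6.52 CPM). PTPRC averaged 0.028 CPM in the knockout and 0.136 CPM in WT, and CD79A 0.071 and 0.055 CPM. Of the 7 stromal markers, COL1A1, COL3A1 and PDGFRB were higher and 2 were lower. Their sum of 20.8 to 22.04 CPM in the knockout and 141 to 158 CPM in WT differed through COL1A2, which averaged 0.337 CPM in the knockout and 139 CPM in WT. The 8 cholangiocyte markers, of which 6 were tested, 2 higher and 2 lower, summed to 706 to 714 CPM in the knockout and 672 to 697 CPM in WT. The 2 higher were SLC4A2 (mean 411 CPM in the knockout, 344 CPM in WT) and SPP1 (17.9 and 2.91 CPM). The 2 lower were SOX9 (161 and 215 CPM) and EPCAM (17.1 and 21.7 CPM), so the sum hides changes in both directions. The part of these marker differences in the results that follow was not tested.

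By the edgeR call, HSD3B7 and ABCB11 mRNA was lower and SLC27A5 and AMACR mRNA was higher in the knockout, though the SLC27A5 libraries of the groups overlapped. Only the HSD3B7 difference was both large and called under every alternative tried. CYP27A1 and BAAT were present at levels that did not differ by the test, and CYP7A1, CYP7B1, CYP8B1 and SLC10A1 were at or near 0 in both groups. Of the 10 genes, 6 passed the filter on low counts and were tested, and 2 were higher and 2 lower in the knockout at an edgeR adjusted p below 0.05. Over all 13265 tested genes, 60.1% were called, 29.4% higher and 30.7% lower, so the number called among these genes stood near the background and is not in itself a result about them. The median log2 fold change of the 6 tested genes was -0.011, beside -0.00057 over all tested genes. The ranges of the 3 knockout and 3 WT libraries did not overlap at 3 of the 6 tested genes, beside 65.8% of all tested genes.

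**Figure D1:**
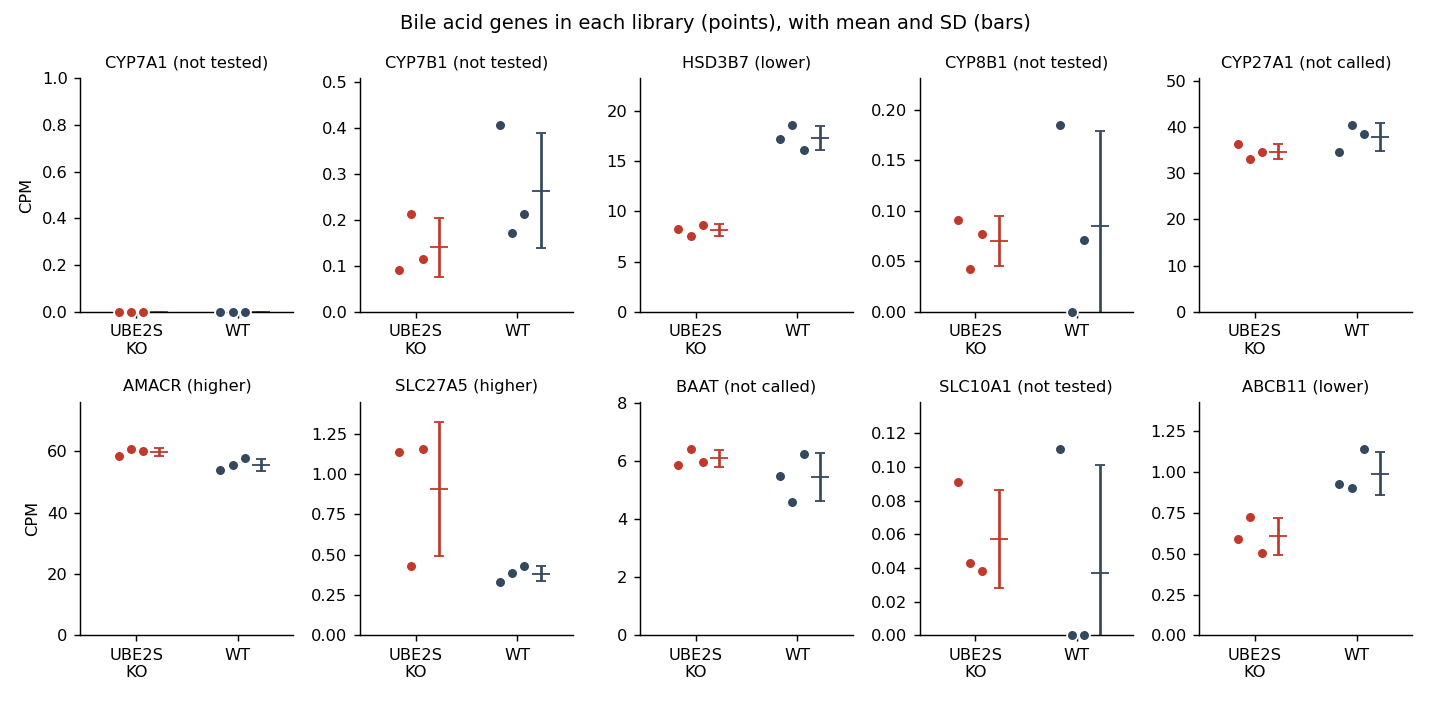
CPM of each of the 10 bile acid genes in the 3 UBE2S knockout (red, left) and 3 WT (dark, right) libraries; every panel has its own axis from 0, points are libraries, bars are mean and SD, and the title gives the edgeR call in the knockout. HSD3B7 was at 7.52 to 8.63 CPM in the knockout and 16.2 to 18.6 CPM in WT, while CYP7A1 had no counts.

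The sterol nucleus hydroxylases among the members, CYP7A1, CYP7B1 and CYP8B1, were nearly silent. CYP7A1, the rate-limiting enzyme of the classical route (ENSG00000167910), had 0 counts in all 6 libraries. A count of 0 allows up to 3 counts per library, or 0.116 to 0.136 CPM in the knockout libraries and 0.107 to 0.129 CPM in the WT libraries, for counting error only. No fold change can be given for it. CYP7B1, the oxysterol hydroxylase of the alternative route (ENSG00000172817), had 2, 5 and 3 counts in the knockout and 11, 4 and 6 counts in WT. The 2 groups overlapped, the ratio of summed counts, 10 in the knockout against 21 in WT, was 0.523 (95% exact binomial interval 0.220 to 1.16), and the two-sided exact permutation p over the libraries was 0.20, where 3 against 3 can reach 0.10 at the lowest. CYP8B1, the sterol hydroxylase that commits intermediates to cholic acid (ENSG00000180432), had 2, 1 and 2 counts in the knockout and 5, 0 and 2 counts in WT. Its summed counts, 5 in the knockout and 7 in WT, gave a ratio of 0.785 (0.196 to 2.87; exact permutation p = 0.90), so a difference was not detectable at this depth. Without WT replicate 1 the CYP8B1 ratio was 1.80 (0.295 to 18.9), on the other side of 1. CYP8B1 also overlaps ACKR2 and KRBOX1 on the opposite strand, and the counting is not stated to use strand, so its few counts cannot be told apart from theirs.

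HSD3B7, the dehydrogenase that acts on the sterol nucleus after the initial hydroxylation in either route, was the member with the clearest difference. The gene (ENSG00000099377) lies on the plus strand of chromosome 16, from 30985207 to 30989152 in GRCh38 by GENCODE release 29, with 4 annotated transcripts. It had 8.27, 7.52 and 8.63 CPM in the knockout, against 17.2, 18.6 and 16.2 CPM in WT, from 176 to 224 counts per knockout library and 434 to 466 counts per WT library. Every knockout library lay below every WT library, by about the same amount. The means were 8.14 ± 0.567 CPM in the knockout and 17.3 ± 1.23 CPM in WT (SD, n = 3 each), so the log2 fold change was -1.08, with an SE of 0.08 (edgeR adjusted p = 1.8e-07). In bulk RNA, fewer cells that express a gene and less of its RNA per cell cannot be told apart. Among the genes near it, SETD1A, 543 bases away, rose (log2 fold change 0.23, SE 0.05, edgeR adjusted p = 0.0010), ORAI3 was higher (0.60) and STX4 was lower (-0.23). With the median of its 25 tested neighbours on each side (0.0010) entered as an offset, HSD3B7 stood at -1.09.

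The promoter windows of the 3 members with the largest called changes, chosen after their values were seen, are given to show the sequence around each start site: 250 bases before and 50 after it, from RefSeq on GRCh38.p14, 5′ to 3′ on the gene's own strand. Capitals mark AGGTCA or its reverse complement TGACCT, the half-site letters that several nuclear receptors of the bile acid pathway can bind, which were searched on both strands and counted wherever they began. The start of the GENCODE gene model of SLC27A5, at 58512413, lies upstream of its whole window, which surrounds another annotated start. The windows are chr16:30984957-30985256 (plus strand) for HSD3B7, chr2:169031275-169031574 (minus strand) for ABCB11 and chr19:58511943-58512242 (minus strand) for SLC27A5.
HSD3B7: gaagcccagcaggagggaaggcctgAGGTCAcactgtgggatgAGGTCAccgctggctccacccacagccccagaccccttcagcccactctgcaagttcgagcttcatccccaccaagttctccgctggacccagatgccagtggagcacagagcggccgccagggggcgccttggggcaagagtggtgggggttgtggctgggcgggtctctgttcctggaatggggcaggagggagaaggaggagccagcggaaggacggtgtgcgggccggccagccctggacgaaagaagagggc
ABCB11: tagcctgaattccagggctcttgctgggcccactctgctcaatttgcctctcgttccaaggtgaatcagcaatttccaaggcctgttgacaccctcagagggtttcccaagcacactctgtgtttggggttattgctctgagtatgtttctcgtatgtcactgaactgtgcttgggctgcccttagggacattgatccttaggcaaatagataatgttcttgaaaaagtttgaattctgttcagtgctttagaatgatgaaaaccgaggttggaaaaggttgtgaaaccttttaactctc
SLC27A5: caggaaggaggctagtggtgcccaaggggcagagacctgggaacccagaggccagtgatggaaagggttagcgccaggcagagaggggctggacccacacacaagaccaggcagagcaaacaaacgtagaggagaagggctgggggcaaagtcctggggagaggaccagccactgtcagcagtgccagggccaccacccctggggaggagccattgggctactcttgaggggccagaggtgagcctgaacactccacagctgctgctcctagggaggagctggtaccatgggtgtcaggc

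The HSD3B7 window held these letters at 2 places, both on its own strand, from 225 to 220 and from 207 to 202 bases upstream of the start, whereas the ABCB11 and SLC27A5 windows held none. At least 1 match was present in 13.8% of the 35116 windows in the RefSeq table and at least 2 in 1.38% of them. Among the 8 windows of 7 members that were searched, 1 of the BAAT windows and the SLC10A1 window held 1 match each. A match describes the letters of a window, and no binding was measured. Only these exact letters were searched, so a window without a match may still hold a variant receptor site. This holds for the ABCB11 and SLC27A5 windows, and the number of matches does not rank the windows by receptor sites. The HSD3B7 and SLC27A5 windows were rich in G and C (66.3% and 62.7%), and the ABCB11 window less so (45.0%), beside a median of 58.7% over all windows.

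Side-chain oxidation was carried by the most abundant members. CYP27A1, the mitochondrial hydroxylase that opens the alternative route and oxidises the side chain (ENSG00000135929; chromosome 2, 218781749 to 218815293, plus strand), had 36.3, 33.0 and 34.6 CPM in the knockout and 34.6, 40.4 and 38.5 CPM in WT. The groups overlapped because WT replicate 1 lay among the knockout libraries. The log2 fold change was -0.13 (SE 0.06, edgeR adjusted p = 0.093), and it was -0.19 and called without WT replicate 1 (edgeR adjusted p = 0.0018). It was smaller, and not called, without WT replicate 2 (-0.079, edgeR adjusted p = 0.31) and with the median shift of its chromosome neighbours removed (-0.031, edgeR adjusted p = 0.69). AMACR, the racemase that turns the side chain into the form peroxisomes can shorten (ENSG00000242110; chromosome 5, 33986178 to 34008108, minus strand), had 58.4, 60.8 and 59.97 CPM in the knockout and 53.7, 55.5 and 57.6 CPM in WT. Each knockout library lay above each WT library, but by little. The log2 fold change was 0.10 (SE 0.04) with an edgeR adjusted p of 0.042, just under the threshold. Leaving out any of the knockout libraries or WT replicate 1 or 2 ended the AMACR call (0.08 to 0.12, edgeR adjusted p 0.056 to 0.14), and so did DESeq2 (adjusted p = 0.14). The readthrough gene C1QTNF3-AMACR, which shares AMACR exons, was at 0.464 CPM in the knockout and 1.09 CPM in WT, and how the authors' counting divided reads between the 2 genes was not tested.

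Activation and conjugation gave a low gene and a moderate one. SLC27A5, the liver synthetase that joins bile acids to coenzyme A (ENSG00000083807; chromosome 19, 58479512 to 58512413, minus strand), had 1.14, 0.427 and 1.16 CPM in the knockout and 0.333, 0.386 and 0.428 CPM in WT. Knockout replicates 1 and 3 were high, and knockout replicate 2 lay at the level of the highest WT library, so the groups overlapped. Its 65 knockout and 30 WT counts gave a ratio of 2.38 (95% exact binomial interval 1.52 to 3.80). That interval covers counting error only, and the exact permutation p over the libraries was 0.20. The edgeR log2 fold change was 1.24 (SE 0.39, adjusted p = 0.014). The call was lost without knockout replicate 1 (1.07, edgeR adjusted p = 0.065) and without knockout replicate 3 (1.01, edgeR adjusted p = 0.081), and the value was 1.57 without knockout replicate 2. SLC27A5 overlaps the zinc finger gene ZNF446 on the opposite strand, which was more abundant and also rose (6.93 CPM in the knockout, 5.29 CPM in WT, log2 fold change 0.40, edgeR adjusted p = 0.012), and without strand the reads of the 2 genes cannot be told apart where they overlap. BAAT, the enzyme that conjugates bile acids with glycine or taurine (ENSG00000136881; chromosome 9, 101360417 to 101383519, minus strand), had 5.86, 6.41 and 5.97 CPM in the knockout and 5.47, 4.59 and 6.24 CPM in WT. The groups overlapped and the log2 fold change was 0.15 (SE 0.12, edgeR adjusted p = 0.28). It was 0.053 without WT replicate 2 and 0.27 without WT replicate 3, not called in either case (edgeR adjusted p of 0.70 and 0.079).

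The transporters were both low. SLC10A1, the sodium-dependent uptake carrier of the sinusoidal membrane and entry receptor of hepatitis B virus (ENSG00000100652), had 2, 1 and 1 counts in the knockout and 3, 0 and 0 counts in WT. The ratio of its summed counts, 4 in the knockout and 3 in WT, was 1.47 (95% exact binomial interval 0.248 to 10.005; exact permutation p = 0.60), so no difference was detectable at this depth. The ratio was 1.03 without WT replicate 2 and 0.941, on the other side of 1, without WT replicate 3, and without WT replicate 1 no WT count was left. ABCB11, the canalicular bile salt export pump (ENSG00000073734; chromosome 2, 168915498 to 169031324, minus strand), had 0.591, 0.727 and 0.501 CPM in the knockout and 0.924, 0.900 and 1.14 CPM in WT. All 3 knockout libraries lay below all 3 WT libraries, at 13 to 17 counts per knockout library and 21 to 32 counts per WT library. The ratio of summed counts was 0.606 (95% exact binomial interval 0.408 to 0.890, for counting error only). Its exact permutation p over the libraries was 0.10, the lowest that the design can reach. The log2 fold change was -0.71 (SE 0.26, edgeR adjusted p = 0.031). The ABCB11 call was lost without knockout replicate 1 (-0.70, edgeR adjusted p = 0.082), knockout replicate 3 (-0.58, edgeR adjusted p = 0.12) or WT replicate 3 (-0.59, edgeR adjusted p = 0.12), and with DESeq2 (adjusted p = 0.19).

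**Figure D2:**
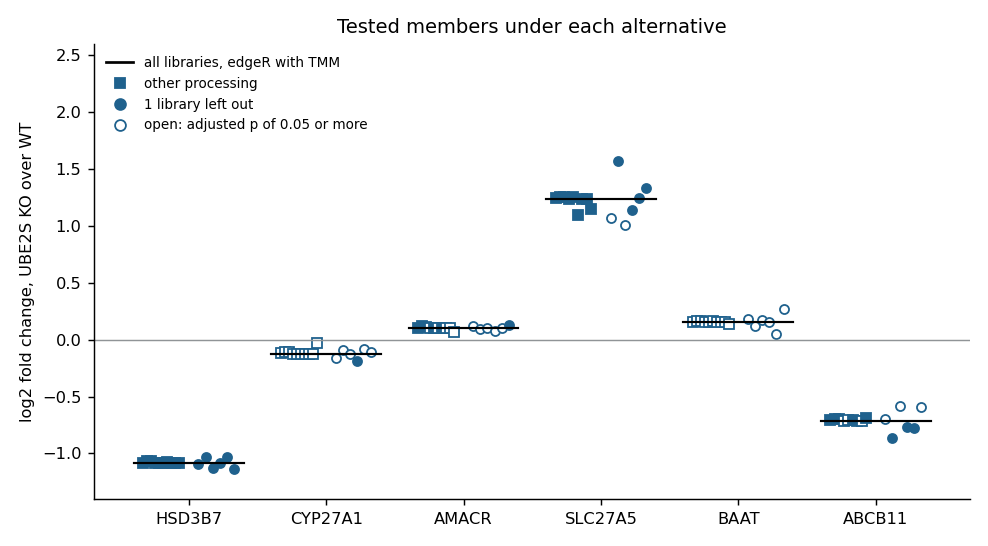
log2 fold change of the 6 tested members, UBE2S knockout over WT, with all libraries (line), under other processing choices (squares) and with 1 library left out (circles); open marks had an adjusted p of 0.05 or more. HSD3B7 stayed between -1.13 and -1.03 with every mark filled, whereas marks of AMACR, SLC27A5 and ABCB11 were open in part.

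Scaled to exon length, the members fell into an abundant and a scarce set. In the knockout, AMACR had 12.3 ± 0.248, CYP27A1 11.6 ± 0.551, HSD3B7 3.26 ± 0.227 and BAAT 1.79 ± 0.0853 CPM per kb of exon (mean ± SD, n = 3). In WT, AMACR had 11.5 ± 0.4004, CYP27A1 12.7 ± 0.998, HSD3B7 6.95 ± 0.494 and BAAT 1.603 ± 0.244 CPM per kb. AMACR and CYP27A1 overlapped in both groups, so their order is not resolved, and the steps from them to HSD3B7 and from HSD3B7 to BAAT were larger than the spread of the libraries. ABCB11, CYP7B1, SLC27A5, CYP8B1 and SLC10A1 had at most 0.178 CPM per kb in any library, and CYP7A1 had none. Within this scarce set neighbours in the order overlapped in the knockout, CYP7A1 apart, and in WT the exception was CYP7B1 over SLC27A5. The order was the same with the length of the longest transcript in place of all exons.

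**Figure D3:**
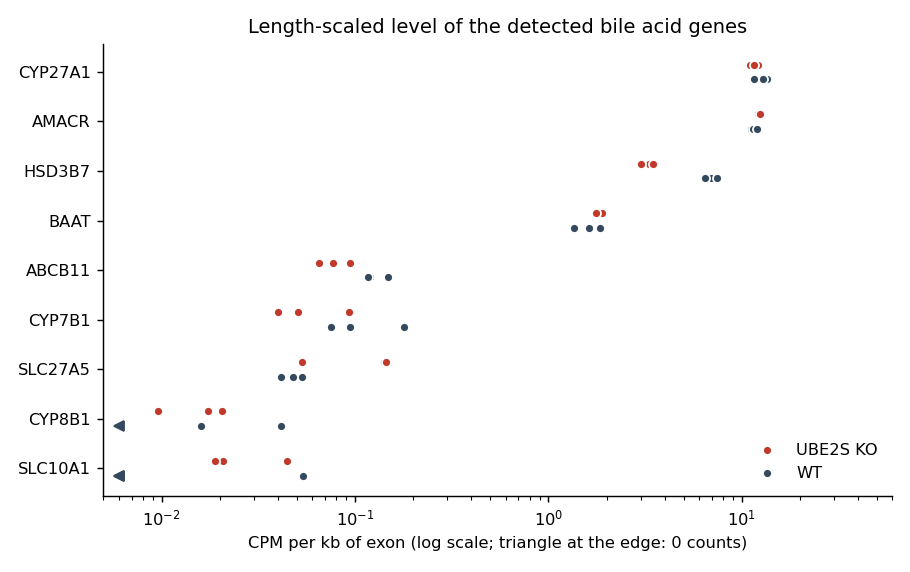
Level of the 9 detected members in CPM per kb of exon on a log axis, 1 point per library, with the UBE2S knockout (red) above WT (dark) in each row; triangles at the left edge mark libraries with 0 counts, 1 for CYP8B1 and 2, drawn on each other, for SLC10A1. AMACR, CYP27A1, HSD3B7 and BAAT lie above 1 CPM per kb in every library and the other members at or below 0.178.

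The rest of the pathway was read from 4 lists of 49 genes by role, of which 40 were tested, 7 were higher and 22 lower in the knockout (72.5% called, beside 60.1% of all tested genes, 29.4% higher and 30.7% lower), with a median log2 fold change of -0.17 beside -0.00057 over all tested genes. Genes are named here where the absolute log2 fold change of a called gene reached 0.5, and a further 9 were named after their values were seen. Among 11 other synthesis enzymes, 9 were tested, 6 lower and 2 higher (88.9% called, beside 60.1% of all tested genes; median -0.47). SLC27A2, a very long-chain acyl-CoA synthetase that also activates bile acid precursors, was at 0.909, 0.684 and 0.848 CPM in the knockout and 3.51, 3.99 and 4.10 CPM in WT, with no overlap (log2 fold change -2.24, SE 0.18, edgeR adjusted p = 3.3e-07). AKR1C4, a reductase of the sterol nucleus with close paralogs whose reads may be shared, was at 0.994 CPM in the knockout and 1.979 CPM in WT (-0.98, SE 0.20). Its chromosome neighbours had a median of -0.30, and with that shift removed AKR1C4 stood at -0.68, still called (edgeR adjusted p = 0.012). The oxysterol hydroxylase gene CYP39A1 was at 2.89 CPM in the knockout and 4.77 CPM in WT (-0.72, SE 0.14). ACOX2, the peroxisomal oxidase of the branched side chain (-0.69, SE 0.13), and the thioesterase gene ACOT8 (-0.47, SE 0.08) fell as well. AKR1D1, the reductase that acts on the sterol nucleus after HSD3B7, went the other way, with 38.6, 39.1 and 37.6 CPM in the knockout and 29.5, 25.3 and 29.4 CPM in WT (0.45, SE 0.06, edgeR adjusted p = 3.0e-05). CH25H, a cholesterol hydroxylase, had 0 counts in every library.

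Of 15 other transporters of bile salts and biliary lipids, 11 were tested, with 4 lower and 2 higher (54.5% called, beside 60.1% of all tested genes; median -0.13). SLCO1B3, a sinusoidal organic anion carrier that also takes up bile salts, was at 6.0004, 6.58 and 6.63 CPM in the knockout and 10.8, 9.90 and 10.1 CPM in WT (log2 fold change -0.68, SE 0.08, edgeR adjusted p = 1.5e-05). Its chromosome neighbours had a median of -0.25, and with that shift removed SLCO1B3 stood at -0.43, still called (edgeR adjusted p = 7.9e-04). The related carrier gene SLCO2B1 was at 67.9 ± 2.40 CPM in the knockout and 51.5 ± 0.671 CPM in WT (0.40, SE 0.04, edgeR adjusted p = 2.4e-06). SLC51B, a subunit of the basolateral bile acid exporter, fell (-0.46, SE 0.11, edgeR adjusted p = 0.0029). ABCG8, one partner of the biliary sterol pump, fell too (-0.54, SE 0.20, edgeR adjusted p = 0.033). The ABCG8 call was lost with DESeq2 (adjusted p = 0.14). It was also lost without knockout replicate 2 (-0.39), knockout replicate 3 (-0.55) or WT replicate 2 (-0.45), with edgeR adjusted p of 0.077 to 0.14. The partner genes SLC51A (0.331 CPM in the knockout, 0.381 CPM in WT) and ABCG5 (0.168 and 0.360 CPM) did not pass the filter and were not tested. ABCC2, the canalicular exporter of conjugates, was at 201 ± 3.74 CPM in the knockout and 155 ± 0.862 CPM in WT (0.37, SE 0.03, edgeR adjusted p = 2.5e-07). Its chromosome neighbours had a median log2 fold change of 0.40, and with that shift removed ABCC2 stood at -0.030 (edgeR adjusted p = 0.41).

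Of 18 regulators of bile acid genes 17 were tested, and 10 were lower and 3 higher in the knockout (76.5% called, beside 60.1% of all tested genes; median -0.17). FGF19, a hormone gene induced by FXR, was at 8.14, 8.42 and 7.71 CPM in the knockout and 15.9, 15.9 and 15.6 CPM in WT, so each group was tight and they did not overlap (log2 fold change -0.97, SE 0.07, edgeR adjusted p = 1.3e-07). NR1H4, the FXR gene itself, was at 35.3 ± 0.622 CPM in the knockout and 47.4 ± 1.65 CPM in WT (-0.42, SE 0.04, edgeR adjusted p = 4.0e-06). NR0B2, the gene of a repressor that acts on bile acid synthesis genes, was at 8.55, 6.11 and 6.94 CPM in the knockout and 5.14, 5.75 and 6.20 CPM in WT. The NR0B2 groups overlapped, and its call (0.33, SE 0.13, edgeR adjusted p = 0.038) was lost with DESeq2 (adjusted p = 0.093) or without knockout replicate 1 (0.20), knockout replicate 3 (0.36), WT replicate 1 (0.26) or WT replicate 2 (0.34), with edgeR adjusted p of 0.066 to 0.19. With the shift of its chromosome neighbours removed NR0B2 stood higher, at 0.55 (edgeR adjusted p = 0.0026). VDR, a nuclear receptor that also senses lithocholic acid, had 0.600 CPM in the knockout and 2.80 CPM in WT (-2.20, SE 0.21, edgeR adjusted p = 1.7e-06). The coactivator gene PPARGC1A (-0.64, SE 0.12) and the corepressor gene PROX1 (-0.56, SE 0.03) fell, as did the hepatocyte factor gene HNF4A (-0.25, SE 0.03), and NR5A2, an activator of bile acid synthesis genes, rose (0.19, SE 0.04).

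Enzymes that make bile acids soluble for disposal were tested at 3 of 5 genes, and 2 were lower and 0 higher (66.7% called, near the 60.1% of all tested genes; median -0.62). SULT2A1, the sulfotransferase of bile acids, was at 16.8, 16.3 and 16.8 CPM in the knockout and 27.7, 27.4 and 26.8 CPM in WT (log2 fold change -0.71, SE 0.05, edgeR adjusted p = 1.4e-07). UGT2B4, a glucuronosyltransferase with close paralogs, was at 22.1, 25.9 and 24.2 CPM in the knockout and 34.9, 36.9 and 39.6 CPM in WT (-0.62, SE 0.06, edgeR adjusted p = 3.6e-06). In both genes the knockout libraries lay below all WT libraries.

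**Figure D4:**
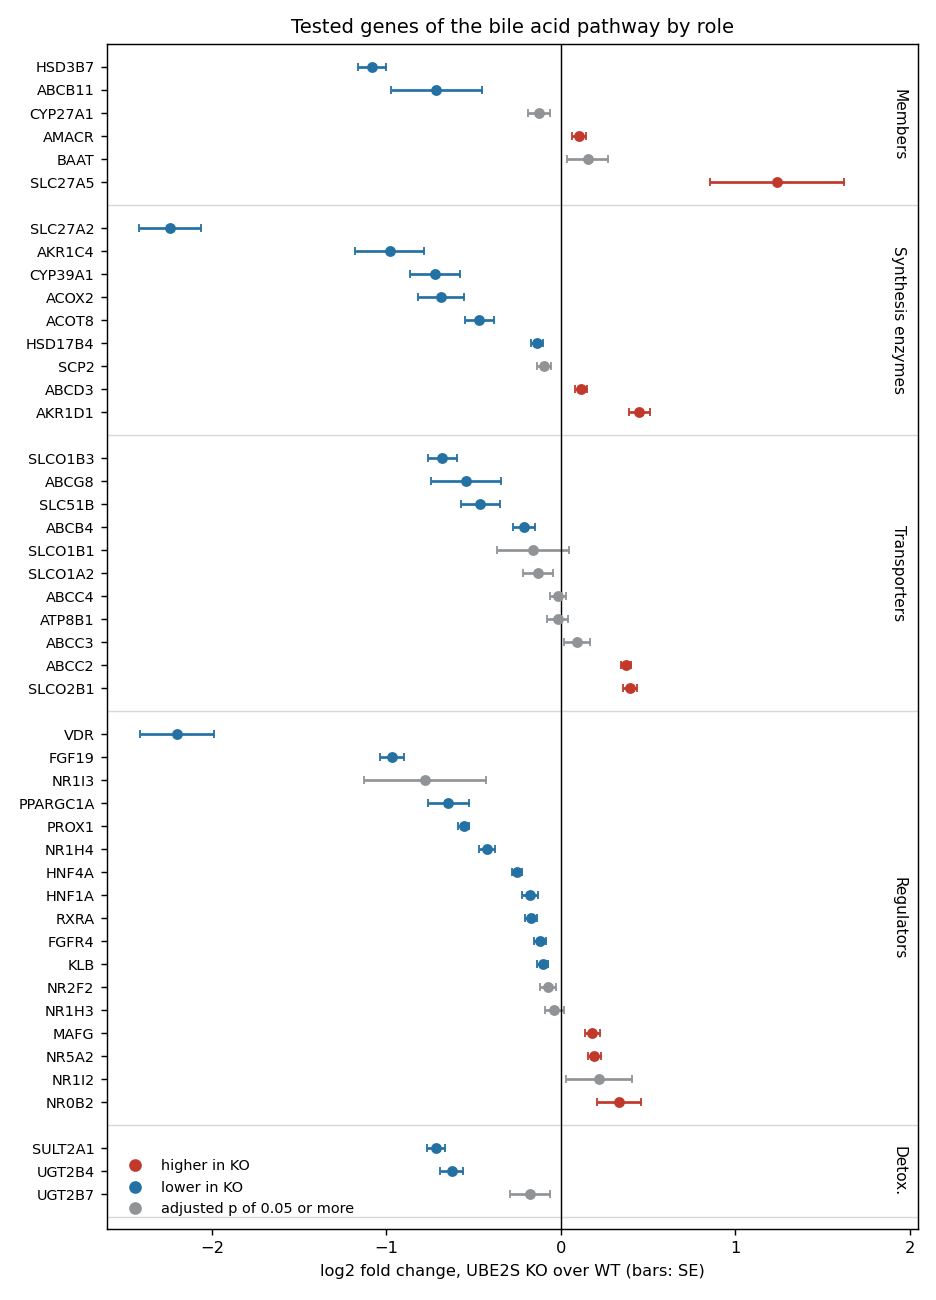
edgeR log2 fold change of UBE2S knockout over WT with its SE for the 6 tested members and the 40 tested genes of the 4 other pathway lists, grouped by role and coloured by the call. SLC27A2 at -2.24 and VDR at -2.20 lie farthest from 0, and 22 of the 40 genes outside the member set were lower, beside 30.7% of all tested genes.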

How the data were processed

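RNA-seq of poly(A) RNA was made with an NEBNext Ultra library kit, per the labels' protocols. The submitters' processing notes list HISAT2, DESeq2, StringTie 1.3.1 and Bowtie2 2.2.8 with no roles; the sources used here give no counter, genome build or strand setting. The values the authors deposited were estimated counts for each gene, not normalized, and 2670 to 2835 genes per library had values that were not whole. These were rounded.

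All 20289 genes entered edgeR 4.0.16 in R 4.3.3: filterByExpr (minimum count 10), TMM scaling, a quasi-likelihood F test of knockout against WT without covariates, and Benjamini-Hochberg adjustment over 13265 genes at 0.05. SE came from the fold change and its F statistic. The function was tested on simulated data in which most genes were unchanged. That setting is unlike these data, so it does not test the fit where most genes are called. Members with counts were compared by summed counts with Clopper-Pearson intervals (counting error only) and an exact permutation test of log2(CPM + 0.5). Results are printed for those below the filter and for SLC27A5 and ABCB11. HSD3B7 and AMACR also had an exact permutation p of 0.10, the lowest that the design can reach. GENCODE release 29 positions and exon lengths were matched by identifier (99.4% of genes).

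The members, gene lists and the rule for naming genes (all members, UBE2S, called pathway genes with an absolute log2 fold change of at least 0.5) were chosen with earlier results of these data known. Alternatives were other scalings, filters and tools (limma 3.58.1, DESeq2 1.42.0), the replicate number as a block, a minimum fold of 1.2, removal of the shift of 25 neighbours on each side, and leaving out each library.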

Additional observations from a re-analysis of the deposited data

How the results depend on the processing

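HSD3B7 kept its direction and call under all 16 alternatives (-1.13 to -1.03). Beside 2 members called higher and 2 lower, the counts were 1 higher and 1 lower with no filter, a 1 CPM filter (which left SLC27A5 and ABCB11 untested), DESeq2 or a minimum fold of 1.2, and 1 higher and 2 lower with the neighbour shift removed. With 1 library left out they were 0 to 2 higher and 1 to 3 lower. Same-numbered knockout and WT libraries did not deviate together (r from -0.014 to 0.0097 across genes). With so few libraries this check cannot exclude a shared culture or batch, and the sources used here do not say how replicates were numbered. With the replicate number as a block the member counts were 1 higher and 2 lower. AMACR lost its call there (0.10, edgeR adjusted p = 0.053), no other tested member changed, and 7 other pathway genes were higher and 24 lower. With the minimum fold of 1.2, 3 other pathway genes were higher and 13 lower, and 1631 genes of the whole table were higher and 1843 lower, against 3903 and 4072. ABCC2 changed sign once the neighbour shift was removed (-0.030), and the cause was not tested. Of 21 other pathway genes named, 15 kept direction and call under every alternative. The exceptions were ABCC2, ABCG8, NR0B2, and, with the minimum fold, SLC51B, NR5A2 and HNF4A. Levels per kb moved by over 1 SD at 8 of 18 values with the longest transcript. Under the scalings tried, the median log2 fold change of all genes lay within 0.013 of 0. Depth limits CYP7A1, CYP7B1, CYP8B1 and SLC10A1, which had 0 to 31 counts over all libraries.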
